A study of Drosophila melanogaster with 4 samples.

Results

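The X chromosome of Kc167 cells carried 939 regions enriched for RNA polymerase II, of the 5288 enriched regions in the list that the authors made for the whole series (17.8%). They were chosen by position alone, as every region of that list that lies on the X and is not typed as depleted. Kc167 is a line of embryonic Drosophila melanogaster cells with the genotype se/e, labelled female and late embryonic. Chromatin bound by the polymerase was precipitated with the antibody ab5408, directed at the repeated heptapeptide in the tail of the polymerase's largest subunit, and sequenced (ChIP-seq). The 4 samples were 2 ChIP libraries and 2 input libraries of this 1 line, and no treatment is named. Each ChIP library has its own list, with 887 X regions in replicate 1 and 884 in replicate 2, and the input libraries were not analysed here. The labels do not say if the replicates were separate cultures, so the spread between them may be technical.

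RNA polymerase II transcribes protein-coding genes and many non-coding RNAs. In chromatin it accumulates where transcription starts, often pausing shortly downstream of the start, and it lies over the bodies of genes while they are being read. In Drosophila males the MSL complex binds the X and raises its transcription to balance dosage with the females' pair of X chromosomes, whereas female cells do not assemble that complex. The X is long and acrocentric, and its coordinates run from the telomere towards the centromere. All positions below are those of FlyBase release 5, counted from 1. The gene table at hand follows release 6, so no gene or promoter is assigned to a region.

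Each region carries 1 score given by the authors, above 0 for an enriched region. No source states its scale. Among scores that recur exactly in the series list, 16 of 2926 pairs lay apart by log2 of a whole number between 3 and 10, against 0 pairs by its natural log or its log10 (tolerance 1e-06, powers of the base left out). Scores were read as log2 values for that reason, and what they are a ratio of is not known. No read counts were at hand, so depth is unknown.

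Polymerase regions on the X were mostly a few kilobases wide, with a tail of broad domains. Their median width was 2785 bp in the series list, with quartiles at 2156 and 4709 bp and a widest region of 29796 bp. The medians in the replicates were 2722 and 2717.5 bp. The median score was 1.28 in the series list, with quartiles at 0.62 and 1.87, against 1.42 in replicate 1 and 1.40 in replicate 2. The series list thus had a lower median score than either replicate, and it also held narrower regions, down to 1001 bp where the narrowest X region of a replicate measured 1304 bp. Together the regions covered 15.3 ± 0.22% of the 22.4 Mb of the X in the replicates (SD, n = 2) and 17.1% in the series list. Those that reached the median score of their list, 20.2 per Mb against 39.5 for all, covered 10.1%.

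The replicates recovered most X regions of the series list. Both had a region at 807 of the 939 (85.9%, exact 95% interval 83.6 to 88.1), beside 84.7% over all regions of the series list. Replicate 1 had a region at 87.5%, beside 87.1% over all regions, and replicate 2 at 88.7%, beside 87.6%. Neither had one at 91 (9.69%), beside 10.0% over all regions. The X thus lay close to the whole list on each of these shares. It was nevertheless below each large autosome arm in replicate 1, 87.5% against 88.3% to 90.1%. The same held in replicate 2, narrowly, with 88.71% against 88.75% to 89.8%. Its share in neither was above that of each arm, 9.69% against 7.39% to 9.07%. Its share in both, 85.9%, lay within their range of 85.8% to 87.35%. These differences between arms were not tested. Because the lists come from the same samples, the overlap is no independent evidence of recovery. Shares carry exact binomial intervals, which cover counting error only and treat regions as independent.

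Taken against each other, the replicates placed the X regions at the same positions. Of the X regions of replicate 1, 863 overlapped one of replicate 2 (97.3%), and 846 of those of replicate 2 overlapped one of replicate 1 (95.7%). They shared 3.29 Mb of the 3.59 Mb covered by either (91.6%). Among the 785 regions that paired 1 to 1, the starts differed by a median of 32 bp and the ends by 31 bp. The 24 X regions of replicate 1 without a partner scored at most 0.57, while the 38 of replicate 2 reached 1.37.

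Scores at the same places were close. Over the 785 pairs the score of replicate 2 exceeded that of replicate 1 by a mean of 0.02, with an SD of the difference of 0.12, and 746 of the pairs lay within 0.25 of each other. The SD of the difference was 0.13 in the lowest quartile of the pairs by mean score and 0.11 in the highest. The largest difference belonged to a region at 13217827 to 13219786 in replicate 1, which scored 0.47 there and 1.01 in replicate 2. The next was at 5233203 to 5235283, with 1.16 in replicate 1 and 1.70 in replicate 2. Both of these were higher in replicate 2, and the next 3 were higher in replicate 1. At 14937081 to 14939346 the scores were 2.19 and 1.73, at 14716545 to 14718725 they were 2.19 and 1.76, and at 5824871 to 5827040 they were 1.54 and 1.12. None of these 5 pairs differed by more than 0.55.

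**Figure D1:**
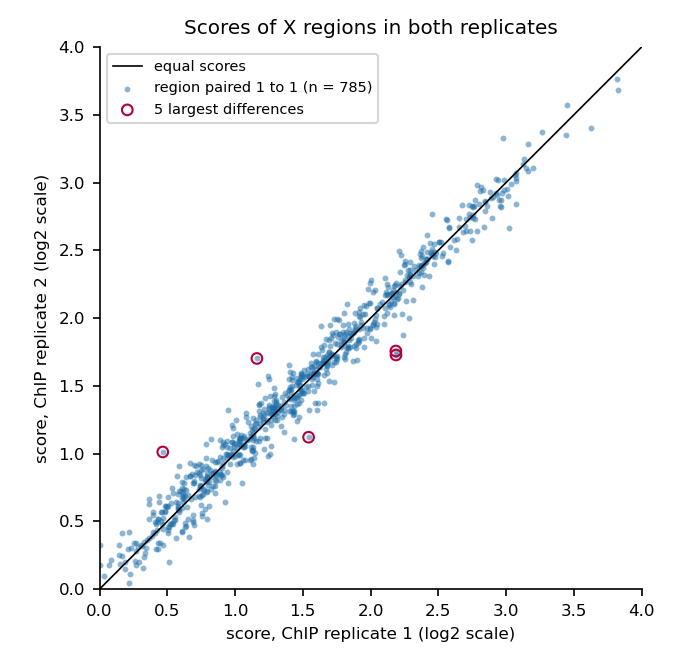
Score of each X region paired 1 to 1 between the lists (785 points) in ChIP replicate 1 (horizontal axis, log2 scale) and ChIP replicate 2 (vertical axis, log2 scale), with a line of equal scores. Points lie along the line, with an SD of the difference of 0.12, and the 5 circled pairs differ by 0.42 to 0.55.

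Of the 10 strongest polymerase regions of the X, 9 were found in both replicates, with scores that differed by at most 0.35. The highest score of the series list, 3.79, lay at 10241057 to 10243576, a region of 2520 bp that scored 3.82 in replicate 1 and 3.76 in replicate 2. Next came 10637403 to 10641310 with 3.69, where the replicates gave 3.83 and 3.68. The region at 19568664 to 19571315 scored 3.51 in the series list and 3.63 and 3.40 in the replicates. In each of these the first replicate was the higher, by no more than 0.23 in score. The order was reversed at 5792646 to 5799984, a region of 7339 bp with 3.50 in the series list and 3.45 and 3.57 in the replicates. At 10211804 to 10214856 the series list gave 3.37 and the replicates 3.44 and 3.35. This region ends 26.2 kb before the strongest one.

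The remaining strong regions were of similar strength to one another, and 1 of them had no counterpart in the replicates. The region at 13221782 to 13227919 scored 3.30 in the series list, 3.27 in replicate 1 and 3.37 in replicate 2. At 14718915 to 14721174 the scores were 3.15, 2.98 and 3.33 in the same order, the widest replicate difference among these regions. Its neighbour 188 bp upstream, at 14716545 to 14718725 in replicate 1, is the pair named above that differed in the opposite direction. The regions at 11514983 to 11517292 and at 19045701 to 19048614 both scored 3.13 in the series list, with 3.13 and 3.14 in the replicates for the former and 3.20 and 3.11 for the latter. The exception was 17789222 to 17790225, which scored 3.22 in the series list but is 1004 bp wide and met no region of either replicate.

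Width and score were related, and the relation had a sharp edge. Across X regions the Spearman correlation of width and score was 0.57 in the series list and 0.59 in each replicate, a description over regions that share their libraries. Of the 939 regions, 243 (25.9%) measured between 1.9 and 2.4 kb, and the shares in the replicates were 31.3% and 29.6%. Nearly all regions scoring above 1 were at least 2 kb wide, 569 of 584 in the series list, 602 of 603 in replicate 1 and 596 of 600 in replicate 2. Regions of 2 to 5 kb made up 59.4% of the members and had a median score of 1.30, those of 5 to 10 kb 16.3% with a median of 1.60, and those over 10 kb 6.39% with a median of 2.03. The 60 regions over 10 kb held 22.8% of the covered length, and each of them was found in both replicates.

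**Figure D2:**
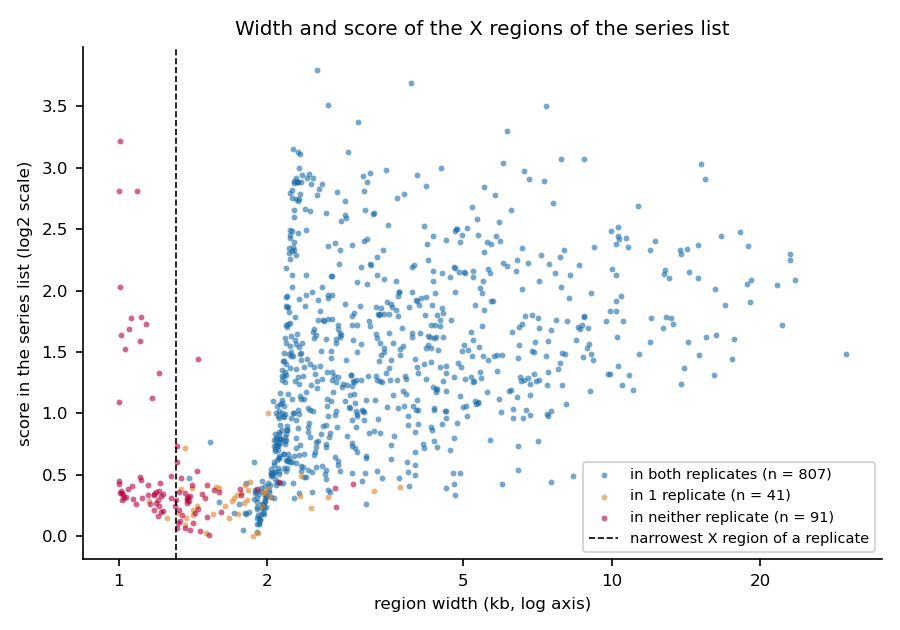
Width (horizontal, kb, log axis) against score in the series list (vertical, log2 scale) for the 939 X regions, coloured by whether both replicates, 1 or neither had a region there; the dashed line marks the narrowest X region of a replicate, 1304 bp. Above a score of 1 the regions found in both replicates begin sharply near 2 kb, and 14 regions above that score lie left of the dashed line.

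The series list held 52 X regions narrower than any X region of a replicate, and 50 of them (96.2%) met no region in either replicate. On the 4 large autosome arms 211 regions were as narrow, and 97.2% of them met none. Of the 52, 38 scored 1 or less and 14 scored above 1. The latter measured 1001 to 1210 bp, and each of these 14 was in neither replicate. The strongest was the region of 1004 bp at 17789222 to 17790225 named above. It was followed by 189990 to 190990 and 5283860 to 5284947, which carried the identical score of 2.81. Identical scores were common in this group: 10 of the 14 had a score that recurred exactly elsewhere in the series list, against 28 of all 939 X regions. The next 2 were 6339482 to 6340485 with 2.03 and 19929869 to 19930976 with 1.78. Of the 14, 5 had no other region within 20 kb on either side, against 9.90% of all X regions. Because regions of this width occur in the series list alone, their absence from the replicate lists does not show that signal was missing there.

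Leaving out those 14, the X regions missing from the replicates were weak with 1 exception. The other 77 found in neither had a median score of 0.33, against 1.41 for the 807 found in both, and median widths of 1314 and 3156 bp. The exception lay at 14055869 to 14057318, was 1450 bp wide and scored 1.44. The 41 found in 1 replicate, 15 in replicate 1 and 26 in replicate 2, scored 0.31 at the median, and none scored above 1.01. Among members at least as wide as the narrowest replicate region, 807 of 887 were in both replicates (91.0%), beside 91.3% of the 3805 such regions on the 4 large autosome arms. In the lowest quartile of the X regions by score 51.5% were found in both, and in the other quartiles 96.2% to 98.3%.

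At the edge of the score, enriched and depleted regions were alike in width. The lowest-scoring member, at 9538983 to 9540856, had 0.0033 in the series list and 0.12 in replicate 1, with no region in replicate 2. At 12097208 to 12098729 the score was 0.01, with no region in either replicate. The members at 18303189 to 18304691 and at 9198298 to 9200216 scored 0.02 and 0.03, and each met a region of 1 replicate, with 0.17 in replicate 2 and 0.14 in replicate 1. The last, at 7230483 to 7232391 with 0.03, met regions of both, scoring 0.03 and 0.10. These 5 measured 1503 to 1919 bp. The 15 depleted X regions of the series list, which are not members, measured 1274 to 1875 bp, and the ones nearest to 0 were 9509500 to 9510941 and 18010140 to 18011559, both with -0.01 and with no region in either replicate.

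The broad domains of the X kept their outline in the replicates, and 2 of the 10 widest were split alike in both. The widest, 29.8 kb from 8772494 to 8802289, scored 1.48 in the series list and was broken into 3 regions in replicate 1 and 5 in replicate 2. Its right-hand part scored highest, 1.87 and 1.55 in the 2 right-hand regions of replicate 1 and 1.89 and 1.57 in those of replicate 2, while the pieces to the left scored 0.53 in replicate 1 and 0.34 to 0.64 in replicate 2. The domain thus had a strong and a weak side in both libraries. The break between the 2 right-hand regions recurred at nearly the same position in both replicates. The other break of replicate 1, between 8779153 and 8781331, held a region of 1556 bp in replicate 2, scoring 0.35. Replicate 2 also had further breaks. The third widest, 5304961 to 5327935 (23.0 kb), scored 2.29 in the series list, but each replicate divided it into a left region (14.2 and 14.1 kb) and a right region (7.72 and 7.66 kb). The left region scored 1.43 in replicate 1 and 1.42 in replicate 2, the right one 3.16 and 3.28. The series score lay between those of the parts.

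Most of the other wide domains were single regions in each replicate. From 509605 to 533155 (23.6 kb) the score was 2.09 in the series list, 2.09 in replicate 1 and 2.12 in replicate 2. From 18525681 to 18548655 (23.0 kb) the scores were 2.25, 2.27 and 2.31, and from 19780166 to 19802276 (22.1 kb) they were 1.72, 1.70 and 1.75, again in the order series list, replicate 1, replicate 2. These domains differed between replicates by 0.03 to 0.05 in score. The domain from 1963452 to 1985107 (21.7 kb, 2.05 in the series list) was split alike in both, into a main region scoring 2.22 and 2.34 and a smaller one scoring 0.98 and 1.02. From 14956961 to 14976121 (19.2 kb) the scores were 2.09, 2.07 and 2.10. The domain from 19528968 to 19548033 (19.1 kb, 1.91) was 1 region scoring 1.90 in replicate 1 and 2 regions scoring 2.12 and 1.64 in replicate 2. The last 2 were whole in both, from 9040468 to 9059379 (18.9 kb) with 2.36, 2.38 and 2.39 and from 3266093 to 3284883 (18.8 kb) with 2.05, 2.10 and 2.02. Over the X, 69 members were split in at least 1 replicate and 26 in both, and the split ones had a median width of 8018 bp.

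**Figure D3:**
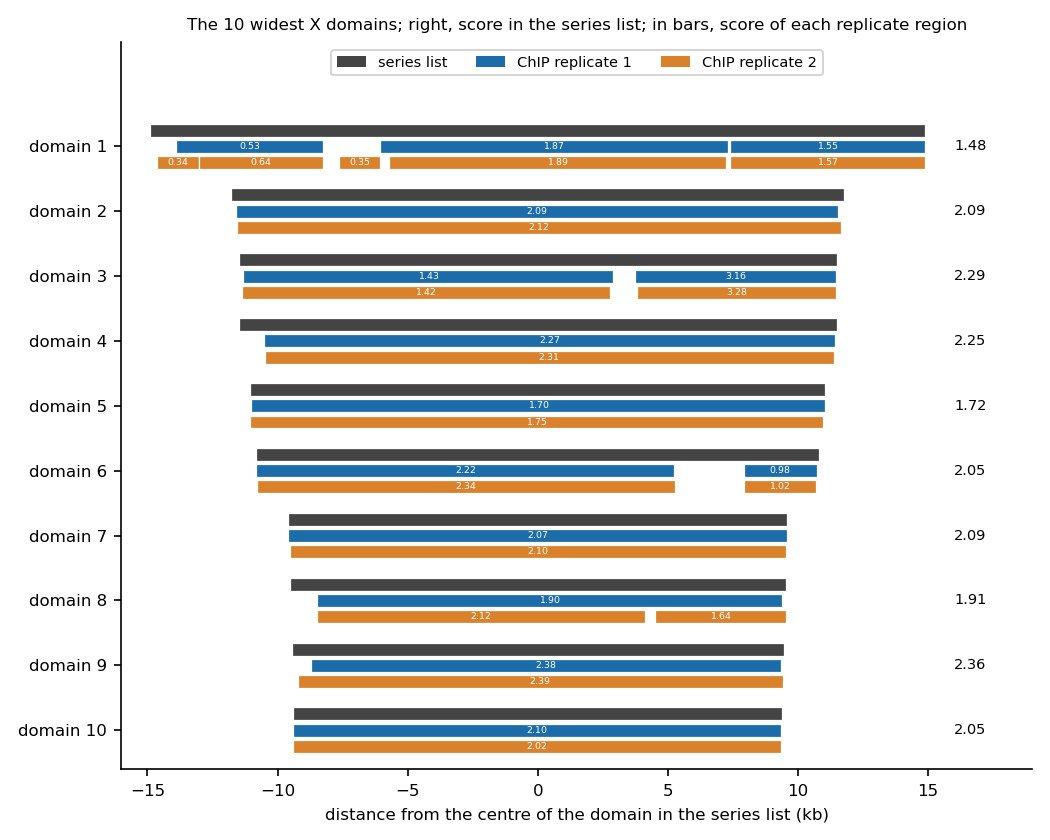
The 10 widest X domains of the series list in order of width, drawn as bars by distance from the domain's centre (kb), with the regions of ChIP replicate 1 and ChIP replicate 2 below each; numbers in the bars are replicate scores and numbers at the right are series scores (log2 scale). Domains 3 and 6 are split in both replicates at nearly the same places. Domain 1 is split into 3 and 5 regions. Its right-hand break in replicate 1 recurs in replicate 2, and a region of replicate 2 lies inside its left-hand one. Domain 8 is split in replicate 2 alone, and the other 6 are single regions in both.

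Polymerase regions on the X lay close together in some places and far apart in others. The median gap between neighbours was 5.02 kb in the series list, against a mean of 19.8 kb, and 175 of the 938 gaps (18.7%) were under 1 kb. In the replicates the medians were 5.96 and 5.88 kb. Scores of neighbouring regions were not related in rank: the Spearman correlation over the 938 neighbouring pairs was -0.05 in the series list and -0.0093 and -0.0040 in the replicates. The 93 regions with no other within 20 kb on either side scored 1.30 at the median and were 2226 bp wide, against 1.23 and 2974 bp in the clusters defined next.

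A cluster was a run of at least 5 regions with gaps of at most 5 kb. By that measure 37 clusters held 232 of the X regions (24.7%) on 6.0% of the chromosome's length. Of the 37, 24 held at least 1 region scoring above 2, a score that 20.9% of all X regions exceeded. These shares are not comparable, because a cluster counts once for its 5 to 12 regions. The median score was 1.23 for the clustered regions and 1.28 for all X regions. Of the clustered regions, 191 were in both replicates (82.3%), beside 85.9% of all X regions. The number depends on the list and the joining gap. Replicate 1 alone gave 27 clusters and replicate 2 alone 23, a joining gap of 2 kb gave 9 and one of 10 kb gave 61, and regions at or above the median score formed 1.

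The largest cluster was weak on its left side and held its strong regions on the right. It spanned 72.9 kb from 13160651 to 13233524 with 12 regions, of which 4 scored above 2, and it ended in the pair at 13221782 to 13227919 (3.30) and 13228182 to 13233524 (2.46). The replicates had 10 and 11 regions there. The last region scored 2.45 in replicate 1 and 2.47 in replicate 2, whereas 2 of the 12 met no region in either. The weak member at 13217740 to 13219837 is the one whose scores differed most between the replicates.

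The clusters next in size also mixed strong with weak regions. From 2010746 to 2068191 (57.4 kb) 11 regions scored between 0.43 and 2.94, and the replicates had 9 and 11 regions. The strongest of them, at 2014827 to 2018845, scored 2.99 in replicate 1 and 2.95 in replicate 2. From 19491052 to 19562480 (71.4 kb) 11 regions scored between 0.11 and 3.11, and it held the domain of 19.1 kb named above; the replicates had 7 and 8 regions, and 4 of the 11 met none. From 8291358 to 8337255 (45.9 kb) the cluster had 10 regions, among them 1 strong one at 8300126 to 8308907. That region scored 3.07 in the series list, 3.14 in replicate 1 and 3.11 in replicate 2. The others scored at most 1.31 in the series list.

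The clusters of 8 regions differed from each other in strength. From 6148064 to 6195967 (47.9 kb) 3 of 8 regions scored above 2, and from 11451453 to 11517292 (65.8 kb) 4 did, among them a region of 15.2 kb at 11480124 to 11495316 that scored 3.03 in the series list, 3.07 in replicate 1 and 3.06 in replicate 2. The cluster from 7913647 to 7958708 (45.1 kb) had no region above 1.73 and a median score of 0.38. Replicates covered 47.5 ± 2.8% of it (SD, n = 2), against 75.8 ± 2.0% and 70.7 ± 2.8% of the other two.

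**Figure D4:**
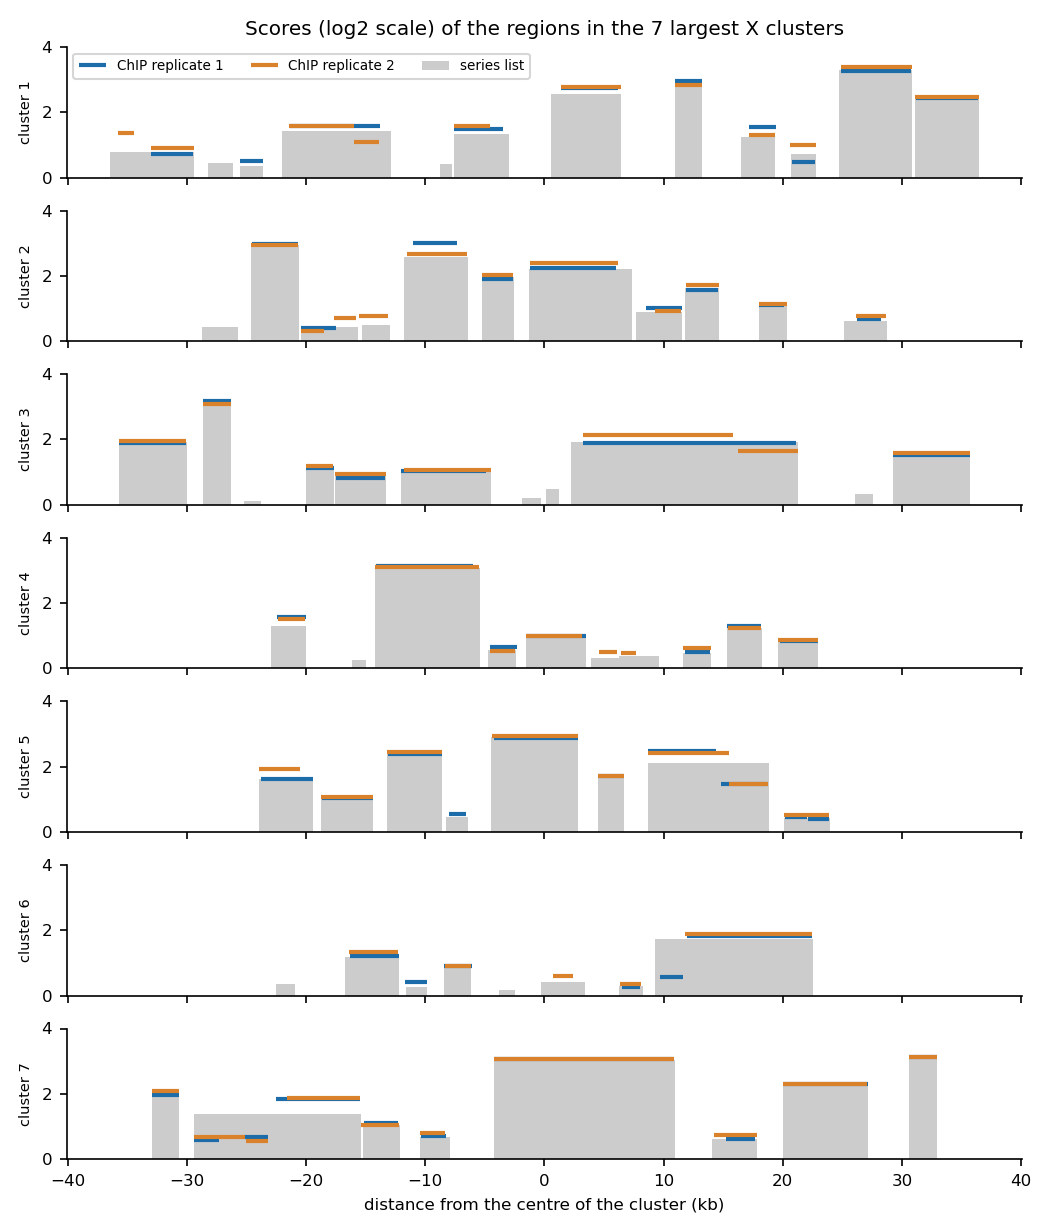
Regions of the 7 X clusters with the most members, by distance from the centre of the cluster (horizontal, kb) and score (vertical, log2 scale); grey bars are regions of the series list, blue lines those of ChIP replicate 1 and orange lines those of ChIP replicate 2. Strong and weak regions lie side by side, and most lines lie near their bars; 1 or both are missing at some weak bars, and where a replicate splits a region its lines can lie above and below the bar.

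Long stretches of the X held no enriched region. In the series list 39 stretches of more than 100 kb made up 6.26 Mb, or 27.9% of the X, against 30.6 ± 0.03% in the replicates (SD, n = 2), and 38 of the 39 held no whole region of either replicate. There were 111 stretches over 50 kb and 14 over 150 kb. The longest ran for 367 kb from 20530884 to 20898012 and was 367 kb long in each replicate too. It ended at a region scoring 2.87, the first of a cluster of 7 regions. The second, 342 kb from 21502201 to 21844552, followed a region scoring 2.65, and measured 342.3 and 342.4 kb in the replicates.

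In the other long stretches the outline turned on weak regions. The third, 331 kb from 14143103 to 14473758, was as long in replicate 2 but reached only 257 kb in replicate 1, where a region scoring 0.21 at 14215691 to 14217175 interrupts it; the series list types that place as depleted. The fourth, 269 kb from 7232392 to 7501413, was bounded on the left by the member scoring 0.03 and was also 269 kb long in each replicate. The fifth, 257 kb from 12098730 to 12355925, was bounded by the member scoring 0.01, which neither replicate had. Before that member lay another of the 39 stretches, 130 kb long, which followed a member scoring 0.34, also in neither replicate. In the replicates both stretches and both members fell within 1 stretch, the longest of the X, with 390.4 and 390.5 kb. The 74 regions next to the 39 stretches scored 1.27 at the median, against 1.28 for the other 865, and were 2558 bp wide against 2805 bp.

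Coverage along the X changed over short distances, and alike in both replicates. The median coverage of the 22 whole 1 Mb bins was 15.5%, and the SD between replicates was at most 0.72 percentage points. The highest bin ran from 15000001 to 16000000 with 22.5 ± 0.19% (SD, n = 2), followed by 11000001 to 12000000 with 22.3 ± 0.36% and 19000001 to 20000000 with 21.5 ± 0.21%. The lowest lay directly before the highest, from 14000001 to 15000000 with 7.32 ± 0.20%. It was followed by 20000001 to 21000000 with 9.45 ± 0.17% and 21000001 to 22000000 with 9.99 ± 0.40%, both at the centromeric end. These gaps between bins are far larger than the spread between the replicates. The number of regions per bin in the series list ran from 22 to 63, and their median score moved less, from 0.94 to 1.47. The remaining 0.423 Mb next to the end of the sequence had 2.33 ± 0.04% covered.

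Set beside the 4 large autosome arms, the X lay within their range on density, coverage, median score, median width and empty stretches. It carried 39.5 ± 0.09 regions per Mb in the replicates (SD, n = 2), against 37.3 ± 0.55 on 2L, 39.0 ± 0.23 on 3L, 37.3 ± 0.30 on 3R and 47.9 ± 0.03 on 2R. The X exceeded 2L by 2.16 ± 0.46 regions per Mb, 3L by 0.46 ± 0.14 and 3R by 2.19 ± 0.21. Against 2R the difference, X minus arm, was -8.39 ± 0.13. Each of these differences had the same direction in both replicates. An exact sign-flip permutation test gave p = 0.5 for each arm (two-sided, n = 2), the smallest p that 2 replicates allow, so no difference between the X and an arm could be shown. The median score was 1.41 ± 0.02 on the X and 1.31 ± 0.02 to 1.43 ± 0.02 on the autosome arms, and the median width 2720 ± 3.2 bp against 2646 ± 15 to 2805 ± 42 bp. The highest score of the X was below that of each arm, 3.83 against 4.03 to 4.49 in replicate 1. In replicate 2 it was 3.76 against 4.07 to 4.44. The share of regions above 2 was lowest on the X in the series list, 20.9% against 21.4% to 23.7%. In the mean of the replicates 3L was lower, 23.7% against 23.9%. In the series list the X had the highest share of regions in clusters of the 5 arms, 24.7% against 14.8% to 21.2%. In the replicates it did not, with 17.6 ± 1.2% against 22.02 ± 1.1% on 2R and 19.7 ± 0.29% on 2L. Gaps under 1 kb were more frequent on the X than on each arm, 16.7 ± 0.35% of its gaps against 15.1 ± 0.21% to 15.7 ± 0.76% (SD, n = 2), and 18.7% against 16.6% to 17.99% in the series list; this difference was not tested. Empty stretches took up 30.6 ± 0.03% of the X, between 20.8 ± 0.80% on 2R and 37.5 ± 0.16% on 2L. Cells with a different dose of the X were not among the samples.

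**Figure D5:**
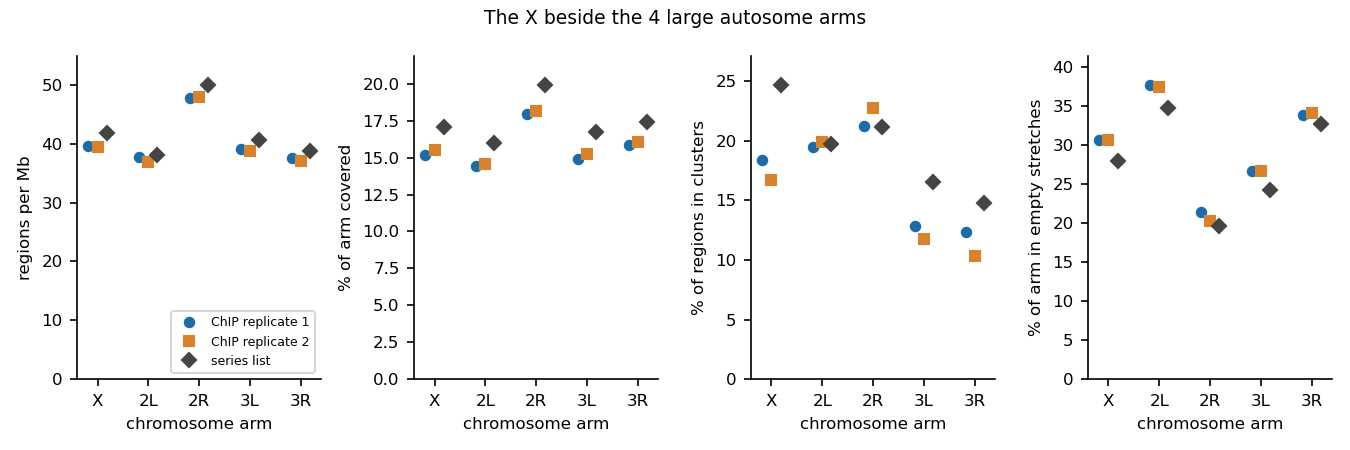
Regions per Mb, percent of the arm covered, percent of regions in clusters and percent of the arm in empty stretches over 100 kb (vertical axes, all from 0), for the X and the 4 large autosome arms; circles and squares are ChIP replicates 1 and 2 and diamonds the series list. The X lies inside the range of the other arms in the replicates on all 4 measures, and highest in the series list for clusters (24.7%).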

How the data were processed

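The submitters' processing notes name Bowtie 0.12.7; how regions were called, at which threshold and against which control is not given in the sources used here. Coordinates are of FlyBase release 5, per the file headers. The authors deposited 1 list per ChIP replicate and 1 for the series, with a score per region that was read as log2 from its values. Enriched regions were used as deposited, and an overlap of 1 bp counted as found (bedtools 2.31.1 gave the same counts). A region split in a replicate takes the score of the piece that overlaps it most. The code, in Python 3.11.15 with numpy 2.4.6, scipy 1.17.1 and matplotlib 3.10.9, was tested on simulated lists. The members, the cluster and stretch limits and the alternatives were chosen with earlier results of these data known. The text names the 10 strongest and 10 widest regions, the 5 weakest, the 5 strongest in neither replicate, the 5 pairs that differ most, the 5 clusters with the most regions (ties kept), the 5 longest stretches and the 3 highest and 3 lowest bins. The width edge and the recurrence of scores were added after the values were seen. Alternatives were a score threshold, merging, 50% overlap, other limits for gaps and stretches, and each replicate alone.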

Additional observations from a re-analysis of the deposited data

How the results depend on the processing

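The share of X regions found in a replicate (88.1%) was 89.3% when every list, replicate lists included, was cut at its own median score. These cuts were 1.27 in the series list and 1.38 in each replicate, and replicate regions below theirs did not count as found. The share was 86.2% with 50% of both regions overlapping and 89.4% after merging regions under 500 bp apart. It was 93.2% without regions narrower than any of the replicates, and 87.5% to 88.7% with each replicate alone. The median width (2785 bp) was 2995.5 bp after merging, 3895 bp at or above the median score, 2967 bp without the narrowest regions and 2717.5 to 2722 bp in the replicates. The median score (1.28) was 1.34, 1.86, 1.30 and 1.40 to 1.42 under the same settings. Density (39.5 regions per Mb) was 35.7 after merging, 20.2 at or above the median score and 41.9 in the series list, and coverage (15.3%) was 10.1% at or above the median score and 17.1% in the series list; each replicate alone gave 39.4 to 39.6 per Mb and 15.2% to 15.5%. Clusters (37) numbered 9 with a joining gap of 2 kb, 61 with 10 kb, 1 at or above the median score, 29 without the narrowest regions and 23 to 27 in the replicates. Empty stretches (39) numbered 111 over 50 kb, 14 over 150 kb, 54 at or above the median score, 41 without the narrowest regions and 40 to 41 in the replicates. The score difference between replicates stayed between 0.01 and 0.02. A threshold or a limit changes these counts by construction; the cause of the other movements was not tested. The settings without the narrowest regions and with the series list for density were chosen after seeing the data. No paired analysis was possible because only ChIP libraries have lists, and the inputs that carry the same numbers gave none. Depth is unknown and its part in the weak regions was not tested.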

Other observations

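The 15 X regions that the series list types as depleted were not of 1 type in the replicates. Of these, 10 overlapped a depleted region of at least 1 replicate, 3 of them in both, and 7 overlapped an enriched one. At 3765598 to 3767326 the series list gave -0.22, while both replicates had an enriched region, scoring 0.0030 in replicate 1 and 0.18 in replicate 2. The lowest score was -0.27, at 15526550 to 15528342, where replicate 1 had -0.03 and replicate 2 no region. Of the 3 enriched X regions of replicate 1 that met no enriched region of the series list, 3 lay on a depleted one, and of the 7 of replicate 2, 5 did.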
